A study of Homo sapiens with 4 samples.

Results

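FZD1, LGR5 and CTNNB1 belong to the receiving end of the WNT pathway, and DKK3 encodes a secreted protein. These are 4 of the 1621 genes that could be named in this series. They were chosen by name, with earlier results of these data known. They encode a WNT receptor, a receptor for R-spondins, beta-catenin itself and a secreted Dickkopf family protein. The deposited values are per transcript, 69548 transcripts in each library, and carry no gene names. Each gene was therefore found as a run of neighboring transcripts whose summed counts gave its row in the study's table of genes.

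The study profiled the ATOH1 lineage, which forms cerebellar granule cells, by TRAP (translating ribosome affinity purification) followed by RNA-seq at day in vitro (DIV) 28. The cells were a clonal line of RUES2, an established human embryonic stem cell line, with the transgene ATOH1-EGFP-L10a, in which an ATOH1 enhancer drives a ribosomal protein fused to EGFP. Antibodies to GFP pull down ribosomes with their mRNA, so an IP holds mRNA on ribosomes of cells that made the fusion protein, and the enhancer decides which cells those are. There were 3 IP libraries, from 3 independent differentiations, and 1 input library, which a legend in the study calls unbound. All 4 libraries come from cells with the transgene, grown with inhibitors of SMAD signaling, CHIR99021, FGF2, BMP7 and BDNF. CHIR99021 inhibits GSK3, and so every culture, input included, had been exposed to a WNT agonist early in the protocol.

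WNT proteins bind Frizzled receptors together with LRP co-receptors. This stops a cytoplasmic complex from destroying beta-catenin, which then enters the nucleus and works with TCF and LEF factors on target genes. R-spondins bind LGR receptors and keep Frizzled receptors on the cell surface. Beta-catenin also sits in cadherin junctions, where it ties cadherins to alpha-catenin. WNT signaling at the dorsal edge of the hindbrain is a known feature of the region where ATOH1 is first expressed.

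FZD1 is on the plus strand at chr7:90893748-90900641 of GRCh37, the sequence also known as hg19, as a gene of 1 exon. LGR5 lies at chr12:71833578-71980090 on the plus strand, with 18 exons in its main annotated transcript. CTNNB1, with 15 exons, is on the plus strand at chr3:41236232-41301587. DKK3, with 7 exons, is on the minus strand at chr11:11977754-12031316. FZD1 was found as 1 transcript, LGR5 as 4, CTNNB1 as 7 and DKK3 as 5. In file order the joined genes beside each of the 4, among them STEAP1 and PEG10 around FZD1 and KCNMB4 and SYT1 around LGR5, lie on the same chromosome and strand. Over all joined genes found in the annotation, 1499 of 1546 neighboring pairs (97.0%) stood in genome order on 1 strand, although genome position was not used to find them.

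RefSeq's table of promoters on GRCh38.p14 held 2 of the 4 genes, FZD1 and CTNNB1. Their 250 bases before the start site are shown because TCF and LEF factors, the partners of beta-catenin, bind DNA with the core CTTTGA or CTTTGT. Whether these factors act on either gene here was not tested. Capitals mark a match to either core on either strand. FZD1 is given for chr7:91264183-91264432, plus strand, and CTNNB1 for chr3:41199255-41199504, plus strand.
FZD1: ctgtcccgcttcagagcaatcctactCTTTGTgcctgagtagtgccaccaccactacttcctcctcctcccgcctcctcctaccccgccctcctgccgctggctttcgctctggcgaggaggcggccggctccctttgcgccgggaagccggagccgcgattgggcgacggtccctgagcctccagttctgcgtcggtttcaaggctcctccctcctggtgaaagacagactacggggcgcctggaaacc
CTNNB1: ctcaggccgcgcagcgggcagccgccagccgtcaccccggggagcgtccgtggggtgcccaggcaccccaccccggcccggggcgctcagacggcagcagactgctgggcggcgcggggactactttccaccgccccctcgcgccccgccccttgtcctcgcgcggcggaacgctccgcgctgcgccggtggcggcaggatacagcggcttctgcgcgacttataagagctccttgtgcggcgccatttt

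The FZD1 stretch holds 1 match, CTTTGT, which begins 224 bases before the start site, and the CTNNB1 stretch holds 0. Of 35116 promoters of this length in the table, 22.8% hold at least 1 match. The G and C content is 65.2% for FZD1 and 74.4% for CTNNB1, beside a median of 58.0% over all promoters. A match of these letters is a description and not a site of binding.

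The libraries held 34603230 to 37719839 estimated reads in the IPs, and 41173019 in the library used as input. ATOH1 was at 37.8, 50.6 and 44.1 TPM (transcript abundance scaled to a fixed sum, a level per length) in IP 1, 2 and 3 and at 0.304 TPM in the input, where it rests on 7 reads. The libraries are grouped by the tag of the deposited file, as the study's label for the input sits on a library that carries the IP tag. With the tagged library as input, 1709 of 1998 rows of the study's table could be matched, against 4 to 41 with any other library. All 3 IPs carry 1 tag and the input carries another. Whatever else differs with the tag therefore cannot be told apart from the pull-down. The joined ATOH1 lineage markers, 8 of a list of 16, were all higher in the IPs by the test described next, from MEIS2 with a log2 fold change of 1.27 to ATOH1 with 7.49, with HES6 at 5.87, NHLH1 at 6.32 and CNTN2 at 4.61. Their summed level was 1168 to 1591 CPM (counts scaled to a fixed library total, not by length) in the IPs, against 69.3 CPM in the input.

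All 4 genes were depleted in the ATOH1-TRAP IPs versus input. Log2 fold changes were fitted to counts with edgeR's quasi-likelihood test, and p-values were adjusted over 43868 genes and unnamed transcripts. Of these, 634 were called lower in the IPs at an adjusted p under 0.05, which is 1.45%, and 995 higher. Among the 1621 joined genes, which the study's own table had already selected as changed, 26.1% were called lower and 29.2% higher. The difference between IP and input was also a key of the join, so the direction of the 4 genes is a description of their size and spread and not an independent finding. The same holds for the direction of every other joined gene named here, the ATOH1 lineage markers included. The spread is known only for the IPs, and the input was assumed to vary like them.

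FZD1, a Frizzled receptor for WNT proteins, was at 16.4, 14.8 and 13.3 TPM in IP 1, 2 and 3 and at 51.4 TPM in the input. The IPs lay close together, and all 3 were below the input. The mean of the IPs was 14.83 ± 1.51 TPM (SD, n = 3), and the ratio of IP to input was 0.288 ± 0.0294 (SD, n = 3). On the count scale the log2 fold change was -1.46 (standard error 0.13, 95% interval -1.81 to -1.11), with an adjusted p of 0.0292 by edgeR's quasi-likelihood test.

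LGR5, a receptor for R-spondins that is itself a target of WNT signaling in many epithelia, had the lowest level and the lowest log2 fold change of the 4. It was at 2.79, 2.63 and 2.54 TPM in IP 1, 2 and 3 and at 16.1 TPM in the input. These levels rest on 364, 369 and 372 estimated reads in the IPs and 1973 for the input. The IPs differed little from each other and lay far under the input, at a ratio of 0.165 ± 0.00769 (SD, n = 3). The log2 fold change was -2.27 (standard error 0.20, 95% interval -2.80 to -1.75), and the adjusted p was 0.0292 in edgeR's quasi-likelihood test.

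CTNNB1 encodes beta-catenin, which carries the WNT signal into the nucleus and links cadherins to the cytoskeleton. Its level was 43.4, 49.1 and 46.6 TPM in IP 1, 2 and 3 and 136.8 TPM in the input. It had the smallest depletion of the 4, at a ratio of 0.339 ± 0.0209 (SD, n = 3), and was still below the input in each IP. The log2 fold change was -1.19 (standard error 0.14, 95% interval -1.56 to -0.82), with an adjusted p of 0.0379 by edgeR's quasi-likelihood test.

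DKK3 is the divergent member of the Dickkopf family of secreted proteins, other members of which block LRP co-receptors. It was at 47.8, 46.3 and 34.2 TPM in IP 1, 2 and 3 and at 166.3 TPM in the input. IP 3 stood below the other IPs, and none came near the input. The ratio was 0.257 ± 0.045 (SD, n = 3), and the log2 fold change was -1.62 (standard error 0.18, 95% interval -2.10 to -1.15, adjusted p of 0.0359 with edgeR's quasi-likelihood test).

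**Figure D1:**
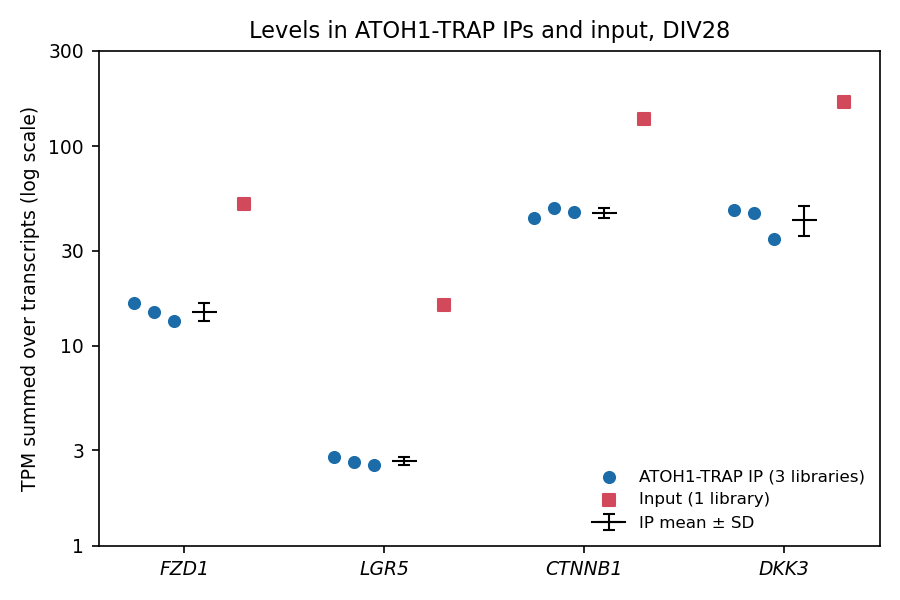
TPM summed over transcripts (log scale) of FZD1, LGR5, CTNNB1 and DKK3 in each ATOH1-TRAP IP (circles), the mean and SD of the 3 IPs (bars) and the input (squares, 1 library). Each gene's input value lies above its 3 IP values, from 16.1 against at most 2.79 TPM for LGR5 to 166.3 against at most 47.8 TPM for DKK3.

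In the input, the order of levels per length was DKK3, CTNNB1, FZD1 and LGR5. In the IPs CTNNB1 (46.4 ± 2.85 TPM) and DKK3 (42.8 ± 7.48 TPM) shared a range and could not be ordered, while FZD1 lay below both and LGR5 below FZD1 in every IP. DKK3 varied most between the IPs, with a coefficient of variation of 17.5% in TPM. That of FZD1 was 10.2%, that of CTNNB1 6.16% and that of LGR5 4.66%, beside a median of 10.9% over the joined genes. Counting error of the input alone puts the mean ratio of LGR5, the gene with the fewest reads, between 0.158 and 0.173 (95% exact Poisson interval). Such an interval covers counting error alone, because the reads carry no molecular identifiers and may repeat a molecule.

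All 3 IPs lay below the input for each of the 4 genes in CPM, as they did for 33.4% of all genes and transcripts tested. Among the 785 joined genes with a log2 fold change below 0, 12.9% had a lower one than LGR5, 32.7% than DKK3, 42.7% than FZD1 and 65.2% than CTNNB1. LGR5 thus stood toward the depleted end of these genes, FZD1 nearer the middle and CTNNB1 on the less depleted side. Whether the 4 genes differ from each other in depletion was not tested. In bulk TRAP libraries, fewer cells expressing a gene, less of its mRNA per cell and less of it on ribosomes cannot be told apart.

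The call for each of the 4 genes depended on the number of IPs and on the tool. Without IP replicate 1, 2 or 3, adjusted p ran from 0.108 to 0.201 in edgeR's quasi-likelihood test, and limma-voom gave 0.0631 for LGR5, 0.0665 for FZD1 and 0.0698 for CTNNB1 and DKK3. The direction stayed the same in each of these fits.

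Of the WNT receptors and co-receptors, 5 of a list of 19 were joined, and FZD1, LGR5 and PTK7 were lower in the IPs, FZD3 was higher and LRP5 did not pass. FZD3, another Frizzled receptor, known for its part in axon guidance and cell polarity, was at 19.1, 17.0 and 14.7 TPM in IP 1, 2 and 3 and at 8.04 TPM in the input. Its log2 fold change was 1.40 with an adjusted p of 0.0369 by edgeR's quasi-likelihood test. FZD3 was above FZD1 in TPM within each IP, although their ranges over the IPs overlapped, and in the input FZD1 was above FZD3. PTK7, a receptor-like protein of the planar polarity branch, was at 43.4, 41.0 and 34.3 TPM in the IPs, against 92.0 TPM in the input (log2 fold change -1.33). LRP5, a co-receptor that binds WNT together with Frizzled proteins, was at 9.57, 8.81 and 4.76 TPM in the IPs, against 29.1 TPM in the input. Its log2 fold change was -1.59, with an adjusted p of 0.108 in edgeR's quasi-likelihood test and a wide spread between IPs.

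The joined ligands for these receptors stood on the other side. All 5 joined WNT ligands, of a list of 19, and both joined R-spondins, of a list of 5 with Norrin, were higher in the IPs. Of all joined genes, 29.2% were called higher. The direction of each joined gene was a key of the join, so this contrast is a description. The log2 fold changes were 7.58 for WNT10A, 7.51 for WNT1, 5.33 for WNT10B, 4.76 for WNT4 and 3.19 for WNT2B. In the single input these rest on 4, 12, 24, 66 and 59 reads in the same order, so the largest are the least certain in size. RSPO3, which binds LGR receptors, was at 412, 325 and 292 TPM in the IPs, against 36.8 TPM in the input, the reverse of LGR5. RSPO1 had a log2 fold change of 4.08.

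DKK3 was listed with the inhibitors by its family, which does not show that it inhibits WNT signaling here. It stood apart from the other joined genes of that list in direction. Of a list of 17 secreted and cell-surface inhibitors, 4 were joined, and 3 of them were higher in the IPs. These were SOST, which blocks LRP co-receptors, with a log2 fold change of 5.11, DRAXIN, a guidance protein that also inhibits WNT signaling, with 2.55, and WIF1, which binds WNT proteins directly, with 2.12. DKK3 was the only joined Dickkopf gene.

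CTNNB1 and TLE1, a co-repressor that TCF and LEF factors recruit, were the 2 joined of a list of 14 on beta-catenin and its nuclear partners, and both were lower. TLE1 was at 15.1, 15.5 and 14.6 TPM in the IPs, against 60.1 TPM in the input (log2 fold change -1.58). Of 19 genes of the cytoplasmic relay, 2 were joined, and neither passed edgeR's quasi-likelihood test: DVL2, which acts next to Frizzled receptors, had a log2 fold change of -0.59 (adjusted p = 0.206) and the kinase gene CSNK1E one of 0.96 (adjusted p = 0.0839). APCDD1, a target gene that also restrains WNT signaling, was the 1 joined gene of 8 targets and was higher, with a log2 fold change of 2.61. Over all WNT roles, 21 of 105 genes were joined, of which 12 were higher, 6 lower and 3 did not pass. The shares among all joined genes were 29.2% higher and 26.1% lower. The median log2 fold change of the 21 was 2.12, beside 0.82 over all joined genes, and 4 of the 6 lower genes are the ones described here. None of the 12 and 6 calls held with limma-voom or without any 1 of the IPs, and those of WNT2B, WIF1 and DRAXIN were also lost without a filter on low counts and that of PTK7 with a length offset.

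**Figure D2:**
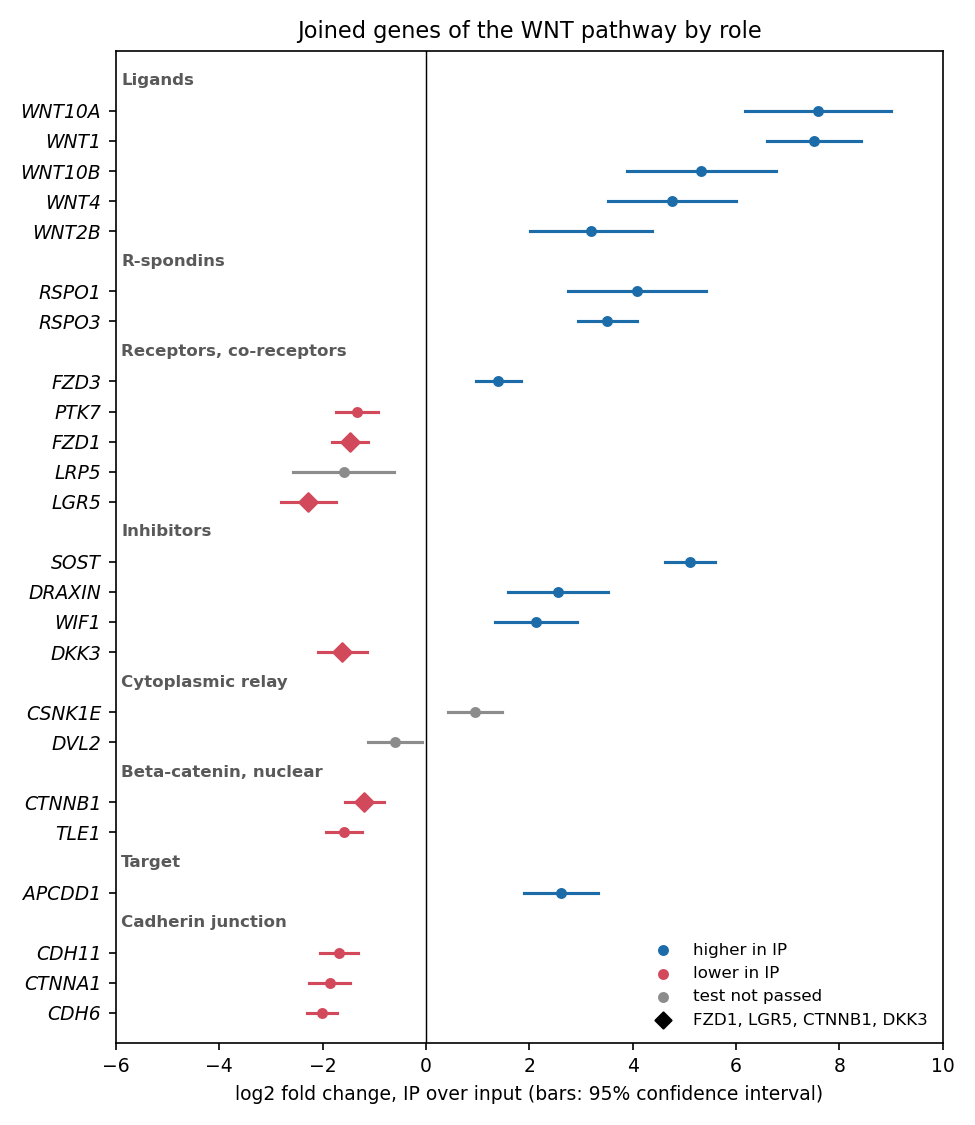
Log2 fold change of IP over input with its 95% confidence interval for the joined genes of the WNT pathway, grouped by role, with FZD1, LGR5, CTNNB1 and DKK3 as diamonds. Ligands and R-spondins lie to the right of 0, while the diamonds and the cadherin junction genes lie to the left, from -2.27 for LGR5 to -1.19 for CTNNB1 among the diamonds.

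The joined partners of beta-catenin at cadherin junctions were lower as well. Of a list of 11, 3 were joined and all 3 were lower in the IPs, beside 26.1% called lower among all joined genes. CDH11, a cadherin of mesenchymal and some neural cells, was at 112, 131 and 114 TPM in the IPs, against 425 TPM in the input (log2 fold change -1.68). CDH6, a cadherin of the developing neural tube and kidney, had a log2 fold change of -2.01, and CTNNA1, the alpha-catenin that binds beta-catenin, one of -1.87. The CTNNB1 value of -1.19 lies above these 3.

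Of the 11 joined genes listed as markers of other cell types, 6 were lower in the IPs, 1 was higher and 4 did not pass. Their part in the result was not tested. Among all joined genes, 26.1% were called lower and 29.2% higher. Of 10 endothelial genes, 3 were joined. ADGRL4 and TM4SF1 were lower, with log2 fold changes of -3.38 and -4.17, and ENG did not pass (-1.06, adjusted p = 0.0773 by edgeR's quasi-likelihood test). Their summed level was 228 to 269 CPM in the IPs, against 1601 CPM in the input. Of 16 mesenchymal and neural crest genes, 3 were joined. COL1A1 (-1.46) and SNAI2 (-0.94) were lower and DCN (-1.42) did not pass, with 1246 to 1390 CPM in the IPs, against 3439 CPM in the input. Of 14 radial glial and astroglial genes, 5 were joined. TNC (-2.57) and SOX9 (-1.81) were lower, SOX2 (3.49) was higher, and FABP7 (1.75) and S100B (-1.59) did not pass. The summed level of the 5 was 348 to 365 CPM in the IPs, against 1420 CPM in the input, where TNC alone was at 1058 CPM. In the study's ATOH1-EGFP cultures at DIV28, most SOX2-positive cells were also EGFP-positive, so SOX2 does not mark only other cell types there. None of the joined markers of these lists was at 0 in any library.

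The joined genes whose pattern over the 4 libraries was most like each of the 4 were found by the distance between log2 CPM values after subtraction of each gene's mean. This likeness is over 4 libraries only and is a description. For FZD1 they were FBXW8, MMD and COL26A1, at distances of 0.0374 to 0.0627 on the log2 scale. GALNT4, PMP22 and UBASH3B were nearest to LGR5, at 0.0610 to 0.0928. COPB1, TMEM30A and ACTN1 were nearest to CTNNB1, at 0.0536 to 0.0707, and share its lower value in IP 1. For DKK3 they were LOXL2, LOXL3 and GLG1, at 0.0739 to 0.116, and each was lowest in IP 3, as DKK3 was. Among the 4 genes themselves FZD1 and DKK3 were closest (0.247) and LGR5 and CTNNB1 farthest apart (0.951).

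**Figure D3:**
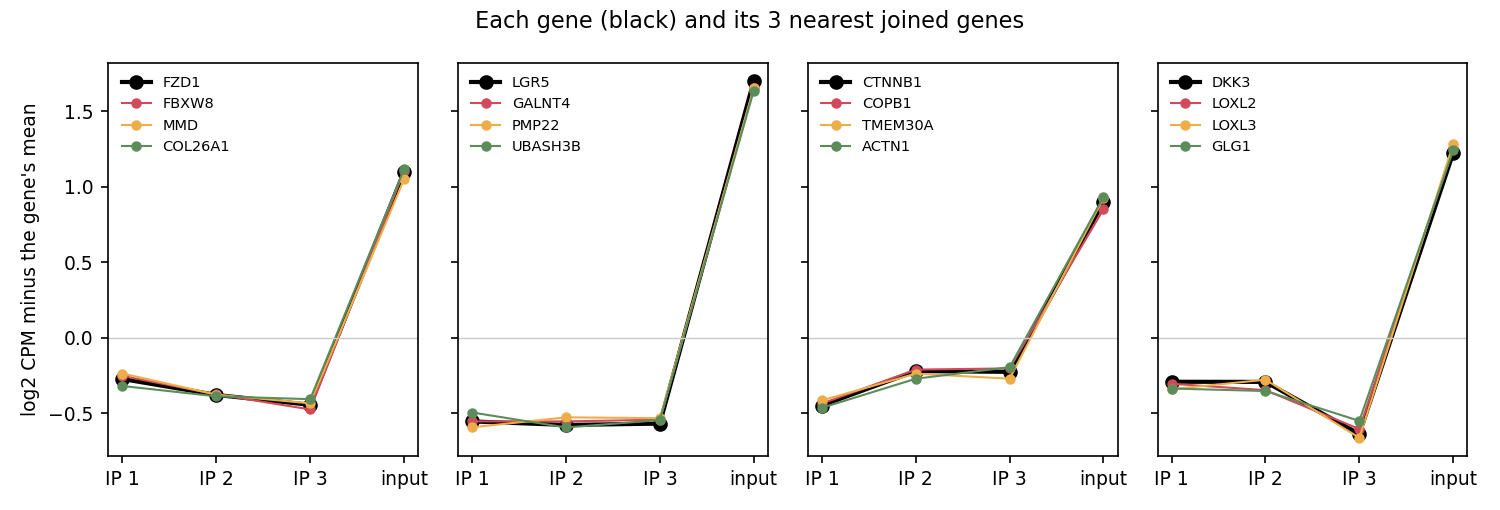
Log2 CPM minus the gene's mean over the 4 libraries for FZD1, LGR5, CTNNB1 and DKK3 (black) and the 3 joined genes nearest to each (colors). Lines only join the points of a gene, as the IPs have no order. The black points of LGR5 reach the highest value in the input, 1.70, and those of CTNNB1 the lowest, 0.90.

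Salmon also splits each gene over its transcripts, and the split of CTNNB1 differed between IPs and input. Transcripts of a gene share most of their sequence, so each of these values is uncertain. The CTNNB1 transcript uc003ckp.2 took 59.7, 57.6 and 55.3% of the gene's TPM in IP 1, 2 and 3 and 37.8% in the input. The transcript uc003ckr.2 took 5.52 and 4.40% in IP 1 and 2, had 0 reads in IP 3 and took 31.0% in the input. Another, uc010hia.1, had 0 reads in all 3 IPs and 1695 reads in the input, 19.4% of the gene's TPM. With a floor of 3 counts per library in place of 0, uc010hia.1 came out 500-fold or more lower in CPM in each IP. The floor covers counting error and not Salmon's split of shared reads, so such a fold is not a lower bound. Between the IPs themselves, uc003ckr.2 had 252 and 242 reads in IP 1 and 2 and 0 in IP 3. The reverse of uc010hia.1 was seen for uc011azg.1, which took 20.3, 23.7 and 28.4% in the IPs and had 0 reads in the input. Against the same floor, and with the same limit, it came out 328-fold or more higher in each IP. A fit with every transcript on its own called 513 of 46762 transcripts lower (1.1%) and 914 higher (1.95%), and both uc010hia.1 (adjusted p = 0.0463, edgeR's quasi-likelihood test) and uc011azg.1 (adjusted p = 0.0245) were among them. The transcript with the most reads, uc003ckp.2, had a log2 fold change of -0.62 and did not pass (adjusted p = 0.103, edgeR's quasi-likelihood test), so the size of the CTNNB1 depletion depends on summing its transcripts.

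LGR5 showed the opposite case. Its summed reads agreed closely between IPs, whereas its main transcript, uc001swl.4, took 30.5, 99.6 and 71.9% of the gene's TPM in IP 1, 2 and 3 and 94.3% in the input. In IP 1 another transcript, uc001swm.4, took 67.2%. The log2 fold change of uc001swl.4 was -2.76, with an adjusted p of 0.111 in edgeR's quasi-likelihood test. The main transcript of DKK3 took a like share in each library: uc001mju.3 was at 82.1, 83.8 and 76.2% in the IPs, beside 80.3% in the input. That transcript had a log2 fold change of -1.62 (adjusted p = 0.0511, edgeR's quasi-likelihood test), and a smaller one, uc001mjw.3, had -1.50 and passed (adjusted p = 0.0483). FZD1 has 1 transcript, uc003ula.3, and so no split.

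**Figure D4:**
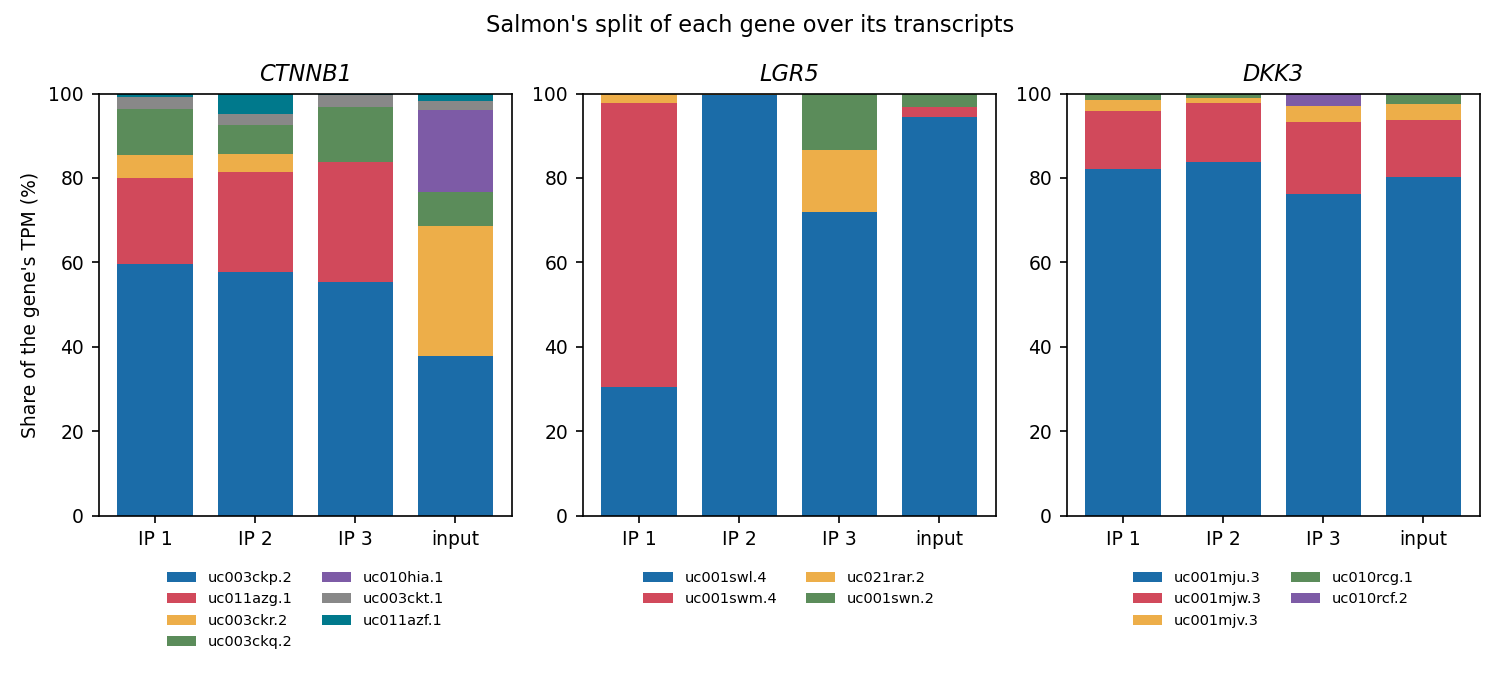
Share of each gene's TPM (%) given to each of its transcripts by Salmon in the 3 ATOH1-TRAP IPs and the input, for CTNNB1, LGR5 and DKK3. The input bar of CTNNB1 lacks uc011azg.1, which takes 20.3 to 28.4% in the IPs, the LGR5 bars differ between IPs, and uc001mju.3 takes 76.2 to 83.8% of DKK3 in every library.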

How the data were processed

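Per the labels and the study's methods, RNA of the IPs and input was amplified with SMART-Seq v4 and sequenced as single reads of 75 bases. The authors ran Salmon 0.8.2 on UCSC hg19 transcripts, which gave the deposited estimated counts and TPM of every transcript. The authors used DESeq2 1.20.0 for gene values, which served here only as a key to names and are not printed.

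A gene was joined where the summed estimated count of 1 to 20 neighboring transcripts came within 2% of its mean count, with a log2 fold change that differed by at most 1e-05 (times its size where above 1). Of 1998 rows used, 1709 matched. Those left out were 86 with several matches and 2 that shared a transcript. After a random shift of the log2 fold changes, with mean counts unchanged, 36 matched. The rest of that table was not analysed here. The rows used had all been called by the study. The 4 genes, the gene lists and the tests were chosen with earlier results of these data known.

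Transcripts of a joined gene were summed and the rest stayed separate, after which the estimated counts were rounded. Low counts were filtered with filterByExpr of edgeR 4.0.16 (R 4.3.3), whose minimum count is 10. TMM scaling and edgeR's quasi-likelihood test followed, with Benjamini-Hochberg adjustment and a threshold of 0.05. Distances between genes used a prior count of 2. TPM were summed per gene. The tools edgeR, DESeq2 and limma-voom were first tried on simulated counts of known change, without a filter. The other scalings, the filters, the length offset and the fits without an IP or on single transcripts were not tried in this way. Alternatives were median-ratio scaling, library totals, other filters, DESeq2 1.42.0, limma-voom (limma 3.58.1), a length offset, leaving out each IP, the label's assignment of the input and every transcript on its own.

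Genes named were the 4 genes, ATOH1, the joined genes of the WNT and cadherin lists, up to 4 of each other list by mean CPM (for endothelium and mesenchyme all 3, and S100B beside the rule as the remaining joined glial gene), and 3 nearest genes for each of the 4. Positions came from GENCODE on GRCh37 and promoters from RefSeq on GRCh38.p14.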

Additional observations from a re-analysis of the deposited data

How the results depend on the processing

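No paired analysis was possible because the input is 1 library. With median-ratio scaling, library totals, either other filter, DESeq2 or a length offset, each of the 4 genes stayed lower in the IPs and past the threshold. With limma-voom the log2 fold changes were -1.46 for FZD1, -2.27 for LGR5, -1.19 for CTNNB1 and -1.63 for DKK3, none past the threshold. Leaving out 1 IP at a time gave log2 fold changes of -1.51 to -1.43 for FZD1, -2.28 to -2.28 for LGR5, -1.25 to -1.12 for CTNNB1 and -1.69 to -1.52 for DKK3, again none past it, and these fits have fewer samples. With every transcript on its own, the transcript with the most reads had -2.76 for LGR5, -0.62 for CTNNB1 and -1.62 for DKK3, none past it, while the FZD1 transcript stayed past it (-1.46). In CPM with TMM scaling the ratio of IP to input was 0.363 for FZD1, 0.207 for LGR5, 0.438 for CTNNB1 and 0.325 for DKK3.

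The counts of 995 higher and 634 lower became 1868 and 1149 with at least 50 counts in 2 libraries and 5686 and 3899 with DESeq2. limma-voom called 0 in either direction (10214 had an unadjusted p under 0.05), as did edgeR without 1 IP (0 to 0, with 6711 to 7951 unadjusted) and with the label's input (0, with 1268 unadjusted), and of the WNT genes these called 0 higher and 0 lower. With every transcript on its own, read from the transcript with the most reads, 2 WNT genes were lower in place of 6 and 8 higher in place of 12, where WNT10B, RSPO1, WIF1 and DRAXIN lost the call. Without a filter on low counts 9 were higher, where WNT2B, WIF1 and DRAXIN lost it, and with a length offset PTK7 lost it. Except for the fits without an IP, which use fewer samples, the cause was not tested.

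With the input taken from the label, which makes the library with 7 ATOH1 reads an IP, each of the 4 genes and each other WNT gene called above reversed, and no adjusted p was under 0.05. The 4 genes then had log2 fold changes of 0.55 (FZD1), 1.17 (LGR5), 0.70 (CTNNB1) and 0.63 (DKK3), and TPM ratios of 1.62, 2.54, 1.78 and 1.72. ATOH1 was at -0.17, WNT1 at -0.37, WNT2B at -0.30, WNT4 at -1.14, WNT10A at -0.65, WNT10B at -1.15, RSPO1 at -1.24, RSPO3 at -0.80, FZD3 at -0.51, PTK7 at 0.39, WIF1 at -0.37, SOST at -0.61, DRAXIN at -0.72, TLE1 at 0.82 and APCDD1 at -0.88. Of the transcripts, uc001mjw.3 was at 0.67, uc003ula.3 at 0.55, uc010hia.1 at 12.03 and uc011azg.1 at -0.0020. Depth limits values with few reads on 1 side, such as ATOH1 and WNT10A with 7 and 4 reads in the input and the transcripts with 0 reads in a group.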
